A study of Mus musculus with 88 samples.

Results

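The homeobox genes Otx1, Otx2 and Gbx2 were followed through 4 tables of mouse embryonic stem cells (ESCs) leaving pluripotency. They are 3 named genes, chosen by name and not by a ranking of their values, though with earlier results of these data known. The tables hold 53697 genes (mesoderm), 54393 (endoderm), 26007 (bulk embryoid bodies) and 15830 (single cells). Otx2 and Gbx2 could be tested in every bulk table. Otx1 could be tested in the embryoid bodies only, because its counts in the directed series never passed 10 in a library.

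The OTX proteins pattern the head of the embryo. OTX2 is needed for the forebrain and midbrain and, before that, works at the enhancers that open as ESCs leave the naive state. GBX2 specifies the anterior hindbrain and, in ESCs, acts downstream of LIF and STAT3 to hold the naive state. At the midbrain-hindbrain boundary OTX2 and GBX2 repress each other, so the neural plate is divided into an Otx2 side and a Gbx2 side. OTX1 is the close relative of OTX2 and is known for its role in the cortex and in sense organs. Polycomb Repressive Complex 2 (PRC2) places the repressive mark H3K27me3 on genes of this kind in ESCs. MTF2 brings the complex to CG-rich DNA, JARID2 belongs to a second form of the complex, and EED is a core subunit of both.

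Because CG content matters for this recruitment, the 250 bases upstream of a start site are shown for Gbx2 and for the Otx2 start with the most CG dinucleotides among its 4 entries. Both come from RefSeq on GRCm38.p6, read 5′ to 3′ on the minus strand, with each CG dinucleotide in capitals.
Gbx2, chr1:89931177-89931426: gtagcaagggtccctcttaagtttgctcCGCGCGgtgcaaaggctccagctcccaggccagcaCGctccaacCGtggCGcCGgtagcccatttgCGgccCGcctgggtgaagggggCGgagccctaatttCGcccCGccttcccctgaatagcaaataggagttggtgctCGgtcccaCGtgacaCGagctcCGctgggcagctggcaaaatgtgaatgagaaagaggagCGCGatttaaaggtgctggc
Otx2, chr14:48665110-48665359: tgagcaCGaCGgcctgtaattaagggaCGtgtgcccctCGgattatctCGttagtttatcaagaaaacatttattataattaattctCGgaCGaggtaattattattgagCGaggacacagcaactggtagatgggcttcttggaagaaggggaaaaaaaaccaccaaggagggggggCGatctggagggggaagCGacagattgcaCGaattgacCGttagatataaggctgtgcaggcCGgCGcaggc

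The Gbx2 stretch held 18 CG dinucleotides, a number reached by 21.7% of 32851 promoters, and its GC content was 61.6%. The Otx2 stretch held 14, reached by 29.4% of promoters, with a GC content of 48.4%. The other 3 Otx2 entries held 9, 8 and 6, and the median promoter held 6. The letters TAATCC, the core that OTX-type homeodomains recognise, were found 1 time in the printed Otx2 stretch on either strand and not in the Gbx2 stretch, against 6.25% of all promoters with at least 1. The palindromic core TAATTA, bound by many homeodomains, was found 3 times in the Otx2 stretch and not in the Gbx2 stretch, against 4.84% of all promoters. The other 3 Otx2 entries held TAATCC 0 times, and TAATTA 0, 0 and 1 times. Which start is used in these cells is not known from the files. Such a match is a description of the letters and not a binding site. On GRCm38 the genes lie at chr1:89927956-89931179 (Gbx2, ENSMUSG00000034486), chr14:48657677-48673819 (Otx2, ENSMUSG00000021848) and chr11:21994764-22002897 (Otx1, ENSMUSG00000005917), all on the minus strand. Otx2 shares 5112 bases with Otx2os1, an antisense RNA on the plus strand. The strand setting of the counting is not given in the sources used here, so reads in the overlap could not be assigned, but Otx2os1 itself was listed at 0 to 1.14 CPM (counts scaled to a library of fixed size) over all directed libraries.

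The data came from 3 experiments. In the directed series, WT (E14), Mtf2 null and Jarid2 null ESCs were sequenced undifferentiated (UD), at 5 and 24 h of primitive streak induction and at 48 h, after a further step toward mesoderm or toward endoderm, with 2 libraries for each genotype and time in each of the 2 series of 24 libraries. The bulk embryoid body series covered days 0, 2, 4 and 7. The names of its day 0 libraries mark them as monolayer (mono) and those of later days as embryoid bodies (eb), which are pooled aggregates. Its samples came from 3 pairs of lines, labelled Mtf2 null with Pcl1-3 wt, Jarid2 null with JM8, and Eed null with J1, with 1 sample for each line and day. The single-cell series held live cells sorted at days 0, 4, 7 and 10 from embryoid bodies of 4 genotypes, WT (E14) and the same 3 nulls, with 1 library for each genotype and day. All ESCs had been kept in serum with LIF. The Mtf2 null line carries a gene trap and the Jarid2 and Eed lines are knockouts, each of them a single line with its own WT background. In the directed and single-cell series the WT was E14, so that genotype and line background cannot be told apart there. The directed duplicates are described as technical, and p-values therefore measure only the spread between such libraries.

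Directed libraries held 9111880 to 16898264 counts in the mesoderm series and 9889592 to 16372804 in the endoderm series. Mtf2, the gene carrying the trap, stood at 30.2 to 38.2 CPM in Mtf2 null libraries and at 175 to 509 CPM in all others. Jarid2 levels in Jarid2 null libraries (189 to 622 CPM in the mesoderm series) overlapped those of WT (318 to 661 CPM), so the transcript level did not check that label. In the single-cell libraries Mtf2 stood at 53.7 to 61.1 CPM of UMIs (unique molecular identifiers, 1 for each captured transcript) in the Mtf2 null libraries against 294 to 794 in the others, and Eed at 1.33 to 11.5 in the Eed null libraries against 115 to 495. Jarid2 stood at 115 to 185 in the Jarid2 null libraries against 184 to 884. In the bulk embryoid bodies at day 0 the labels did not match: the sample with the Jarid2 null label held Mtf2 at 129 CPM (JM8 304), and the sample with the Mtf2 null label held it at 324 CPM (Pcl1-3 wt 413). At days 2, 4 and 7 the Mtf2 null label held Mtf2 at 227, 232 and 166 CPM, below Pcl1-3 wt (433, 316 and 385) but well above the Mtf2 null libraries of the directed series. The Eed null label held Eed at 109, 205, 107 and 58.8 CPM at days 0 to 7, overlapping J1 (103, 246, 78.5 and 52.9). These samples thus did not show the loss of Eed seen in the single-cell Eed null libraries, and the reason was not tested. The samples are named by their labels throughout. The UD libraries of the 2 directed series were compared by chi-square per gene, which was 5.15 to 19.1 for pairs with the same replicate number, 7.48 to 22.0 for pairs with different numbers and 8.02 to 12.2 for the 2 UD libraries of 1 group. In each genotype both same-numbered pairs were closer than both pairs with different numbers, and whether they came from the same cultures is not given. The UD values of the 2 series are therefore not taken as independent evidence. In bulk samples, fewer cells that express a gene and less RNA per cell cannot be told apart.

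Over the directed time course of WT cells, Otx2 rose and Gbx2 fell, and the main step of both lay between 24 and 48 h. In the mesoderm series the 2 WT libraries of each time had Otx2 at 2.66 and 2.04 CPM undifferentiated, 2.35 and 2.72 at 5 h, 5.88 and 5.40 at 24 h, and 63.3 and 43.4 at 48 h. Gbx2 stood at 46.3 and 30.9 CPM undifferentiated, 27.3 and 25.4 at 5 h, 18.2 and 22.7 at 24 h, and 0.784 and 1.30 at 48 h. Both libraries at 48 h lay above every earlier WT library for Otx2 and below every earlier one for Gbx2. From 24 to 48 h the log2 fold change of Otx2 was 3.25 (SE 0.23, adjusted p = 2.26e-09, edgeR quasi-likelihood test with Benjamini-Hochberg adjustment, as for all directed tests) and that of Gbx2 was -4.31 (SE 0.29, adjusted p = 1.49e-09). Here and below, apart from the interactions, a gene was called at an adjusted p under 0.001 with a log2 fold change above 1 in size. In this step 4.16% of the 18361 genes tested were called. From UD to 48 h the changes were 4.51 (SE 0.26) for Otx2 and -5.22 (SE 0.28) for Gbx2, with 8.64% of genes called.

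Toward endoderm the WT pattern had the same order, with a smaller fall of Gbx2. Otx2 stood at 1.70 and 1.50 CPM undifferentiated, 3.71 and 4.77 at 5 h, 10.8 and 13.2 at 24 h, and 82.0 and 55.3 at 48 h. Its mean rose at each step. Gbx2 went from 43.7 and 32.2 CPM undifferentiated through 23.2 and 22.3 at 5 h and 20.3 and 16.1 at 24 h to 6.58 and 3.86 at 48 h. The rise of Otx2 from 5 to 24 h passed the limits (log2 fold change 1.51, SE 0.22, adjusted p = 6.48e-05, with 2.5% of 19261 genes called). It rested on both times' libraries, since the adjusted p was 0.00227 without WT 24 h replicate 2 and 0.00477 without WT 5 h replicate 1, in a range of 1.26e-12 to 0.00477 over all alternatives. From 24 to 48 h Otx2 changed by 2.51 (SE 0.18) and Gbx2 by -1.79 (SE 0.22) on the log2 scale, both called beside 3.88% of genes, although the Gbx2 call was lost with only the groups compared (adjusted p = 0.00456, the highest of its alternatives). From UD to 48 h the changes were 5.41 (SE 0.25) and -2.85 (SE 0.22), both called beside 8.15% of genes.

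**Figure D1:**
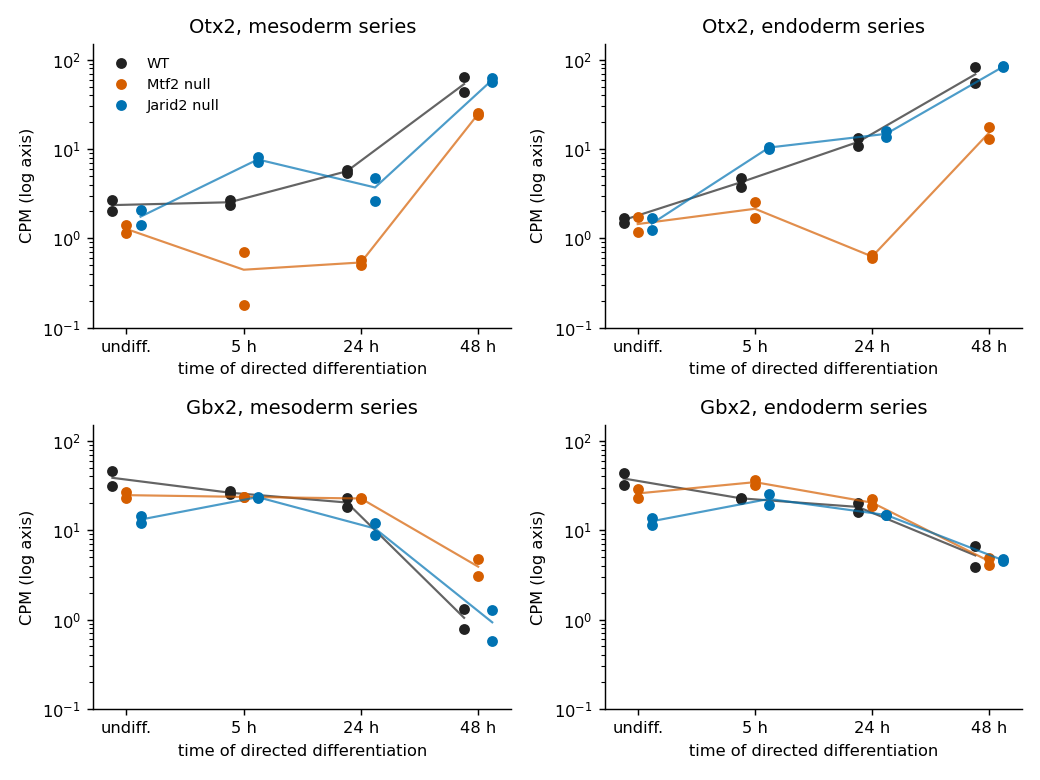
Otx2 (top) and Gbx2 (bottom) in CPM on a log axis against time in the mesoderm series (left) and the endoderm series (right). Points are the 2 libraries of each genotype and time and lines join their means; Otx2 climbs and Gbx2 drops between 24 and 48 h in every genotype, and the Mtf2 null libraries hold Otx2 at 0.502 to 0.646 CPM at 24 h.

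The opposite movement between 24 and 48 h was found in every genotype. In Mtf2 null cells Otx2 rose by 5.50 (SE 0.34) and Gbx2 fell by 2.55 (SE 0.24) on the log2 scale in the mesoderm series (3.41% of genes called), and Otx2 rose by 4.60 (SE 0.31) while Gbx2 fell by 2.18 (SE 0.22) in the endoderm series (3.84% called). In Jarid2 null cells the changes were 4.02 (SE 0.24) and -3.41 (SE 0.32) toward mesoderm (7.79% called) and 2.5 (SE 0.18) and -1.69 (SE 0.22) toward endoderm (3.03% called). From UD to 48 h Otx2 also rose and Gbx2 also fell in both mutants in both series, all called. The Otx2 changes were 4.26 and 3.41 in Mtf2 null cells (6.28% and 8.93% of genes called, mesoderm and endoderm) and 5.09 and 5.85 in Jarid2 null cells (8.5% of genes in each series). The Gbx2 changes were -2.67 and -2.52 in Mtf2 null cells and -3.75 and -1.45 in Jarid2 null cells. Without Jarid2 null 48 h replicate 2 the Gbx2 changes of the mesoderm series were -4.18 from 24 h and -4.47 from UD.

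Before 24 h the fitted changes lay in opposite directions in WT cells but not in every step of the mutants. From UD to 5 h the WT log2 changes of Otx2 and Gbx2 were 0.11 and -0.55 toward mesoderm and 1.39 and -0.74 toward endoderm, and from 5 to 24 h they were 1.15 and -0.36 and 1.51 and -0.32. Of these 8 values the main test called only the Otx2 rise from 5 to 24 h toward endoderm. Without a filter on low counts the Otx2 rises from UD to 5 h toward endoderm (adjusted p = 1.78e-05, 0.000443 with DESeq2, range up to 0.045) and from 5 to 24 h toward mesoderm (0.000268, range up to 0.0762) were called too. The small Otx2 value from UD to 5 h toward mesoderm changed sign with upper quartile factors (-0.06). In Mtf2 null cells both genes lay lower at 5 h than at UD toward mesoderm (-1.42 and -0.06) and both higher toward endoderm (0.57 and 0.42). From 5 to 24 h the Mtf2 null values were 0.17 and -0.06 toward mesoderm and -1.77 and -0.77 toward endoderm, and none of these 8 values passed the limits, although the endoderm fall of Otx2 did with no filter (adjusted p = 0.000226, range up to 0.0997).

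In Jarid2 null cells Otx2 rose between UD and 5 h, from 1.41 and 2.08 to 7.14 and 8.14 CPM in the mesoderm series and from 1.23 and 1.69 to 10.6 and 10.1 CPM in the endoderm series. The log2 fold changes were 2.13 (SE 0.30, adjusted p = 2.37e-05, 5.4% of genes called) and 2.84 (SE 0.27, adjusted p = 3.24e-07, 3.53% called). The mesoderm call was lost when the fit held only the groups compared (adjusted p = 0.0028, the highest of its alternatives). Gbx2 was higher at 5 h than undifferentiated in the same libraries, at 23.2 and 23.8 against 14.3 and 12.0 CPM toward mesoderm and at 19.4 and 25.5 against 11.4 and 13.8 CPM toward endoderm, a log2 fold change of 0.83 in each series that did not pass the limits (adjusted p = 0.00384 and 0.00218). Both fitted changes lay in the same direction in this step, and only that of Otx2 was called.

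From 5 to 24 h Jarid2 null cells of the mesoderm series had less of both genes. Gbx2 went from 23.2 and 23.8 to 8.92 and 12.0 CPM, a log2 fold change of -1.18 (SE 0.21, adjusted p = 0.000174, 10.4% of genes called). That call was lost in 4 of 10 alternatives, with only the groups compared (adjusted p = 0.00154) and without Jarid2 null 24 h replicate 1 (0.00938), 5 h replicate 1 (0.0014) or 5 h replicate 2 (0.00202), in a range of 9.42e-10 to 0.00938. Otx2 went from 7.14 and 8.14 to 2.65 and 4.77 CPM in the same step (log2 fold change -1.07, SE 0.27, adjusted p = 0.00294), which did not pass the limits. In the endoderm series Otx2 of the Jarid2 null cells was at 16.0 and 13.5 CPM at 24 h and Gbx2 at 14.9 and 14.7 CPM, with adjusted p of 0.0569 and 0.0241 for the step from 5 h.

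Mtf2 null cells had less Otx2 than WT cells from 5 h on toward mesoderm and from 24 h on toward endoderm. In the mesoderm series the Mtf2 null libraries were at 0.178 and 0.711 CPM at 5 h, 0.570 and 0.502 at 24 h, and 24.0 and 25.4 at 48 h, below both WT libraries at each of these times. The log2 difference from WT was -2.39 (SE 0.45, adjusted p = 0.00042) at 5 h, -3.37 (SE 0.39, adjusted p = 1.94e-06) at 24 h and -1.11 (SE 0.20, adjusted p = 0.00023) at 48 h, beside 7.56%, 5.72% and 6.82% of genes called. In undifferentiated cells, at 1.40 and 1.14 CPM, the difference was -0.87 (SE 0.39, adjusted p = 0.0882, with 11.1% of genes called). The 24 h call was kept in all 10 alternatives, the highest adjusted p being 0.000213. The 5 h call was lost with only the groups compared (0.00635) and without Mtf2 null 5 h replicate 1 (0.00989), WT 5 h replicate 1 (0.00279) or WT 5 h replicate 2 (0.00562), in a range of 5.27e-08 to 0.00989. Its log2 difference was -1.81 without Mtf2 null 5 h replicate 1 and -3.73 without replicate 2, the library with the higher count. The 48 h call was lost with only the groups compared (0.00114) and without Mtf2 null 48 h replicate 1 (0.006), Mtf2 null 48 h replicate 2 (0.0038) or WT 48 h replicate 1 (0.0113), in a range of 9.15e-10 to 0.0113.

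Toward endoderm the Mtf2 null libraries had Otx2 at 1.17 and 1.71 CPM undifferentiated, 1.70 and 2.58 at 5 h, 0.646 and 0.603 at 24 h, and 13.0 and 17.7 at 48 h. The difference from WT was -4.25 (SE 0.32, adjusted p = 1.58e-09) at 24 h and -2.16 (SE 0.18, adjusted p = 3.32e-09) at 48 h, beside 6.58% and 10.5% of genes called, and both calls were kept in all 10 alternatives. At 5 h it was -0.98 (SE 0.30, adjusted p = 0.0175, 7.61% of genes called) and in undifferentiated cells -0.15 (adjusted p = 0.793, 11% called), neither past the limits. At 24 h the Mtf2 null libraries of both series held less Otx2 than at UD, while the WT libraries held more. These low Otx2 levels of the Mtf2 null libraries rest on few counts. The scale is given by another gene, Otx1. In the Mtf2 null libraries Otx1 reached 0.727 (mesoderm) and 0.922 CPM (endoderm) on at most 9 and 10 counts. The size of the fold differences at 24 h, and at 5 h toward mesoderm, is therefore uncertain.

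Gbx2 in Mtf2 null cells departed from WT at 48 h of the mesoderm series, where it stayed higher. The Mtf2 null libraries were at 22.9 and 26.5 CPM undifferentiated, 23.8 and 23.5 at 5 h, 23.1 and 22.2 at 24 h, and 4.72 and 3.09 at 48 h. At 48 h both lay above both WT libraries, with a log2 difference of 1.91 (SE 0.35, adjusted p = 0.000365). That call was lost with only the groups compared (0.00632) and without Mtf2 null 48 h replicate 1 (0.0122), WT 48 h replicate 1 (0.0172) or WT 48 h replicate 2 (0.00123), in a range of 5.95e-09 to 0.0172. At UD, 5 h and 24 h the differences were -0.64, -0.16 and 0.15, and none passed the limits. In the endoderm series, with 22.9 and 28.7 CPM undifferentiated, 36.9 and 32.2 at 5 h, 22.2 and 18.5 at 24 h, and 4.86 and 4.12 at 48 h, the differences from WT were -0.56, 0.60, 0.16 and -0.23 and none passed the limits.

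Gbx2 was lower in undifferentiated Jarid2 null cells than in WT cells, one of few genes called in that contrast. The Jarid2 null libraries stood at 14.3 and 12.0 CPM in the mesoderm series and at 11.4 and 13.8 CPM in the endoderm series, all below the WT libraries (30.9 to 46.3 and 32.2 to 43.7 CPM). The log2 differences were -1.55 (SE 0.21, adjusted p = 0.000166) and -1.59 (SE 0.19, adjusted p = 1.87e-05), where 0.37% and 0.742% of all genes were called. The mesoderm call was lost without Jarid2 null UD replicate 1 (0.00316), Jarid2 null UD replicate 2 (0.00351) or WT UD replicate 1 (0.00358), in a range of 5.62e-17 to 0.00358. The endoderm call was lost without Jarid2 null UD replicate 1 (0.00204), in a range of 5.13e-20 to 0.00204. Otx2 did not differ past the limits in those cells (-0.42 and -0.15, adjusted p = 0.554 and 0.864).

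At later times the Jarid2 null cells differed from WT in neither gene past the limits. At 5 h Otx2 was at 7.14 and 8.14 against 2.35 and 2.72 CPM in WT toward mesoderm, a log2 difference of 1.59 (SE 0.29, adjusted p = 0.0252), and at 10.6 and 10.1 against 3.71 and 4.77 CPM toward endoderm, a difference of 1.30 (SE 0.23, adjusted p = 0.0151). DESeq2 called both (adjusted p = 0.000822 and 0.00031), as did the fit with no filter on low counts, in ranges up to 0.334 and 0.495. Few genes were called in these contrasts at all: by edgeR 0% of genes toward mesoderm, where 2672 genes had an unadjusted p under 0.05 and DESeq2 called 11, and 0.0363% toward endoderm. Gbx2 differed by -0.17 and -0.02 at 5 h. At 24 h the differences were -0.63 (mesoderm) and 0.30 (endoderm) for Otx2 and -0.98 and -0.30 for Gbx2, beside 1.97% and 0.0312% of genes called. At 48 h, with Otx2 at 62.4 and 56.4 CPM toward mesoderm and 84.8 and 83.0 toward endoderm and Gbx2 at 0.569 and 1.29 and at 4.48 and 4.70, the differences were 0.15 and 0.29 for Otx2 and -0.08 and -0.19 for Gbx2, beside 0.169% and 0.125% of genes called. The Gbx2 differences at 48 h changed sign without a single library, to 0.34 without Jarid2 null 48 h replicate 1 toward mesoderm and to 0.23 without WT 48 h replicate 1 toward endoderm. The columns of the Jarid2 null endoderm libraries at 48 h carry 28 h in their names, and were taken as 48 h because the labels give that time with the same library numbers.

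Whether a genotype effect changed between UD and 48 h was tested as an interaction. It was called at an adjusted p under 0.001, with no limit on the fold change. For Gbx2 in the mesoderm series the Mtf2 null effect changed by 2.56 on the log2 scale (SE 0.41, adjusted p = 0.000246), the smaller fall of Gbx2 in the mutant, with 3.19% of genes called. That call was lost in 4 of 14 alternatives, with only the groups compared (0.00294) and without Mtf2 null 48 h replicate 1 (0.00442), Mtf2 null UD replicate 1 (0.0017) or WT 48 h replicate 1 (0.004), in a range of 1.13e-11 to 0.00442. For Otx2 in the endoderm series the Mtf2 null effect changed by -2.01 (SE 0.44, adjusted p = 0.00229, 6.44% of genes called), which did not pass the limit in the main test but did with DESeq2 (0.000139), with no filter (4.07e-06) and without WT 48 h replicate 2 (0.000496), in a range up to 0.0473. The other Mtf2 null values were -0.25 for Otx2 in the mesoderm and 0.33 for Gbx2 in the endoderm series. For Jarid2 null cells the interaction was 1.40 for Gbx2 (SE 0.32, adjusted p = 0.0112) and 0.44 for Otx2 in the endoderm series, and 1.47 and 0.58 in the mesoderm series, none past the limit in the main test, beside 0.54% and 0.0545% of genes called. The Gbx2 value of the endoderm series passed it with no filter (adjusted p = 4.02e-05, range up to 0.112).

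Other genes of the same pathways give the setting of these changes. Of 14 naive pluripotency genes, all tested, 4 fell from UD to 48 h in WT cells toward mesoderm (median log2 fold change -0.73, beside 3.08% of all genes that fell) and 11 toward endoderm (median -1.59, beside 3%). Of 13 genes of the formative epiblast, the state that Otx2 accompanies, 3 rose and 2 fell toward mesoderm (median 0.20) and 8 rose and 2 fell toward endoderm (median 2.22), where 5.57% and 5.16% of all genes rose. Of the forebrain genes 5 of 12 were tested in each series, and none passed the limits in WT cells, the lowest adjusted p being that of Pax6 toward mesoderm (-1.26, SE 0.34, adjusted p = 0.00629). Of the midbrain-hindbrain genes, 0 rose and 2 fell of 8 tested toward mesoderm (Pax8, a paired-box factor, and Fgf17, a ligand of the boundary), and 1 rose and 1 fell of 10 toward endoderm.

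Endoderm markers (6 genes, summed) were higher in Mtf2 null than in WT libraries at every time. They already stood at 30.2 to 38.6 CPM in undifferentiated Mtf2 null libraries against 3.32 to 5.03 in WT in the mesoderm series, and at 30.5 to 40.4 against 4.59 to 4.83 in the endoderm series, where neither Otx2 nor Gbx2 differed past the limits. They stood at 22.2 CPM in both Mtf2 null libraries at 24 h toward mesoderm against 4.70 to 5.84 in WT, and at 68.6 to 80.0 against 2.29 to 4.97 at 48 h. Toward endoderm they stood at 26.2 to 34.1 against 3.19 to 4.00 CPM at 24 h and at 134 to 157 against 2.25 to 3.01 at 48 h. Their part in the lower Otx2 and higher Gbx2 of Mtf2 null cells was not tested. The WT libraries labelled endoderm at 48 h thus held almost none of the defining endoderm markers, with Foxa2 at 0 in a library, and the Jarid2 null ones held 1.52 to 2.55 CPM. Trophoblast and simple-epithelium markers summed to 353 to 408 CPM in Mtf2 null libraries at 48 h toward mesoderm against 83.9 to 147 in WT. The cardiac and lateral mesoderm markers of WT cells at 48 h toward mesoderm summed to 28.8 to 31.5 CPM. In Mtf2 null libraries they summed to 94.1 to 100 CPM. Toward endoderm, naive pluripotency genes summed higher in Mtf2 null than in WT libraries at UD (4345 to 4574 against 2332 to 2937 CPM). They were also higher at 48 h (1567 to 1611 against 1107 to 1245) but lower at 5 and 24 h. Toward mesoderm at 24 and 48 h these sums overlapped. The part of these markers was not tested.

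Otx1 was at 0 to 9 counts in a library of the mesoderm series and at 0 to 10 in the endoderm series, too few to test. The relatives of the same homeobox families were also low. Crx, the photoreceptor OTX gene, ranged from 0.355 to 1.59 and from 0.509 to 1.77 CPM, and Gbx1 from 0.456 to 3.18 and from 0.973 to 2.94 CPM in the mesoderm and endoderm series. Over the 24 conditions of both directed series, Pearson's r between the mean log2 CPM of Otx2 and Gbx2 was -0.80 (-0.85 over the 12 mesoderm and -0.76 over the 12 endoderm conditions), and Gbx2 had the 40th lowest r to Otx2 of 18017 genes. These conditions share time and genotype, so this is a description with no test. The genes most like Otx2 were Zic2 (r = 0.90), a zinc-finger factor of the epiblast and dorsal neural tube, Gstm7, F2r, Mxd4 and Zfp185, and the least like was Mafa (r = -0.94). Those most like Gbx2 were Foxp4 (r = 0.93), Itpk1, Myo1g, Chchd4 and Etv4, an effector of FGF signalling (r = 0.90), and the least like was Pcdh1 (r = -0.95).

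In the bulk embryoid bodies of the WT lines, Gbx2 was highest at day 2 and fell by day 4, while Otx2 differed in its course from line to line. Gbx2 stood at 6.65, 18.0, 1.59 and 1.29 CPM at days 0, 2, 4 and 7 in Pcl1-3 wt, at 16.5, 32, 2.55 and 4.50 in JM8, and at 3.78, 14.3, 1.28 and 0.608 in J1. In all 3 lines day 2 lay above day 0 and both lay above days 4 and 7. The rise to day 2 was 1.38 on the log2 scale (SE 0.32, adjusted p = 0.0309, limma on log2 CPM with line as a block, called at an adjusted p under 0.05 beside 10.3% of 15842 genes), and was lost without J1 (0.105), JM8 (0.31) or Pcl1-3 wt (0.138) and with no filter (0.0571), the range over its alternatives reaching 0.31. The fall from day 2 to day 4 was -3.27 (SE 0.32, adjusted p = 0.000484, 25% of genes called), lost without JM8 (0.0689, the highest of its alternatives). From day 4 to 7 the change was -0.08 (adjusted p = 0.919, 0.177% of genes called).

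Otx2 in the same lines stood at 1.22, 1.84, 95.8 and 54.7 CPM in Pcl1-3 wt, at 14.4, 37.6, 115 and 38.8 in JM8, and at 40.3, 73.6, 42.7 and 9.11 in J1 at days 0, 2, 4 and 7. Its peak lay at day 4 in Pcl1-3 wt and JM8 and at day 2 in J1. None of its steps passed the test, with log2 changes of 0.90, 2.09 and -1.52 and adjusted p of 0.681, 0.242 and 0.555. From day 0 to day 2 both genes were higher in each of the 3 WT lines, so the opposite movement of the directed series was not seen in that step. Day 0 was a monolayer and day 2 an aggregate, so time and form of culture cannot be told apart there. From day 2 to day 4 Gbx2 was lower in all 3 lines, and Otx2 was higher in Pcl1-3 wt and JM8 and lower in J1.

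The embryoid bodies with null labels followed a similar course. In the samples labelled Mtf2 null, Otx2 stood at 13.8, 11.4, 72.7 and 24.6 CPM and Gbx2 at 34, 46.9, 1.35 and 0.490 at days 0, 2, 4 and 7. In those labelled Jarid2 null Otx2 stood at 4.89, 25.8, 81.6 and 28.2 CPM and Gbx2 at 16.0, 76.9, 4.21 and 1.58, and in those labelled Eed null Otx2 stood at 14.2, 39.2, 87.2 and 19.4 CPM and Gbx2 at 3.66, 8.80, 1.21 and 0.853. In each of the 6 lines Gbx2 was highest at day 2. Against its WT line over the 4 days, no label differed in Otx2 or Gbx2 past the test. The log2 differences of Otx2 were 1.00 (SE 0.60, adjusted p = 0.265) for the Mtf2 null label, -0.74 (adjusted p = 0.44) for the Jarid2 null label and -0.07 (adjusted p = 0.95) for the Eed null label, and those of Gbx2 were 0.63 (adjusted p = 0.388), 0.14 (0.881) and -0.12 (0.90), beside 17.7%, 14.6% and 11.1% of genes called.

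**Figure D2:**
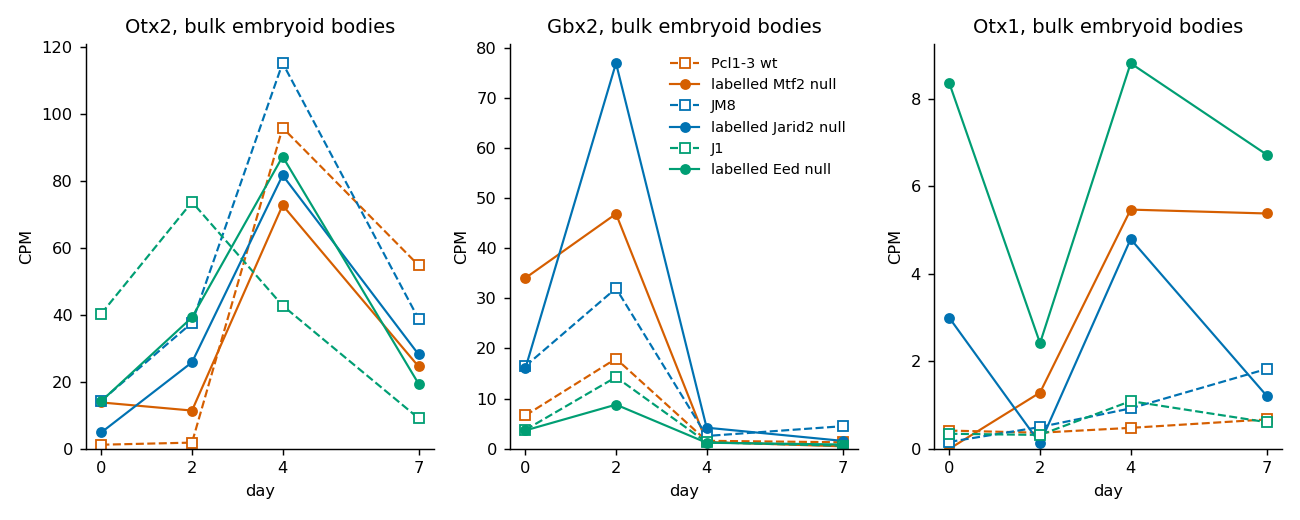
Otx2, Gbx2 and Otx1 in CPM against day in the bulk embryoid bodies, 1 sample for each line and day. Filled symbols with solid lines are the samples with null labels and open symbols with dashed lines the WT lines; Gbx2 peaks at day 2 in all 6 lines and Otx1 is highest in the Eed null samples (2.41 to 8.81 CPM).

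Otx1 was the member that differed between an Eed null label and its WT line. The Eed null samples stood at 8.35, 2.41, 8.81 and 6.72 CPM at days 0, 2, 4 and 7 and J1 at 0.343, 0.316, 1.09 and 0.608. The log2 difference was 2.77 (SE 0.64, adjusted p = 0.0168). The call was lost without day 2 (0.0554), day 4 (0.0791) or day 7 (0.0661), without the day as a block (0.0714) and with edgeR on reads recovered from the deposited values (0.0501), in a range of 0.0171 to 0.0791. Eed null label and line background cannot be told apart. The level of Eed in these samples overlapped that of J1, without the loss seen in the single-cell Eed null libraries. In the samples labelled Mtf2 null Otx1 was listed at 0 at day 0 and at 1.28, 5.46 and 5.38 CPM at days 2, 4 and 7, against 0.367 to 0.670 in Pcl1-3 wt (1.33, SE 0.64, adjusted p = 0.166). Without day 0 that difference was 2.12 with an adjusted p of 0.0226, in a range up to 0.532, and on the other days Mtf2 stood at 166 to 232 CPM under this label. In the samples labelled Jarid2 null it was at 2.99, 0.124, 4.79 and 1.21 CPM, and in JM8 at 0.158, 0.497, 0.923 and 1.82 (0.84, adjusted p = 0.408). Over the same Eed null contrast 3 of 7 forebrain genes tested rose (among them Lhx2, 2.46, and Six3, 2.14, both of the early eye field), with a median of 1.40 over the list, beside 5.73% of all genes that rose.

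At day 0 there was 1 sample for each line, and intervals cover counting error only. The library labelled Mtf2 null had 3.51 more Otx2 than Pcl1-3 wt on the log2 scale (exact 95% interval 2.80 to 4.30) and 2.36 more Gbx2 (2.04 to 2.69). The library labelled Jarid2 null differed from JM8 by -1.55 in Otx2 (-1.97 to -1.15) and by -0.04 in Gbx2 (-0.31 to 0.23), and that labelled Eed null differed from J1 by -1.50 (-1.91 to -1.11) and -0.04 (-1.03 to 0.92). These differences have no replicate check.

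In the single-cell series 4949 cells of 16 libraries (202 to 347 cells, median 4997 to 10603 UMIs per cell) were compared by the summed UMIs of each library. Libraries used the same 384 well barcodes, as the plate method does, and no cell name occurred in more than 1 library. With 1 library for each genotype and day there is no test, and the intervals cover counting error only. Of the days sampled, which did not include day 2, the bulk peak, Gbx2 was highest at day 0 in every genotype. In WT it stood at 147 CPM at day 0 and at 8.87, 13.2 and 2.86 at days 4, 7 and 10, in Mtf2 null at 86.9, then 13.5, 10.8 and 6.02, in Jarid2 null at 174, then 32.5, 25.2 and 24.8, and in Eed null at 40.1, then 3.54, 11.9 and 2.99. The day 0 intervals were 133 to 161 (WT), 77.9 to 96.7 (Mtf2 null), 160 to 189 (Jarid2 null) and 33.6 to 47.4 (Eed null), of which those of WT and Jarid2 null touched and the others did not overlap. In the directed series undifferentiated Jarid2 null cells had less Gbx2 than WT, whereas this single-cell library was not below WT.

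Otx2 was low at day 0 in the libraries other than Eed null and higher at days 4 and 7. In WT it stood at 44.8, 252, 242 and 78 CPM at days 0, 4, 7 and 10, in Mtf2 null at 33.9, 224, 192 and 232, and in Jarid2 null at 68.2, 256, 389 and 156. In Eed null the order was the reverse, with 207 CPM at day 0 (192 to 223) and then 163, 148 and 41.8. Thus at day 0 the Eed null library had the highest Otx2 and the lowest Gbx2 of the 4 genotypes, but the Mtf2 null library had the lowest Otx2 with less Gbx2 than WT. The bulk samples with the Eed null label went the other way for Otx2. They were lowest at day 0, at 14.2 CPM against 40.3 in J1, and stood at 39.2, 87.2 and 19.4 CPM at days 2, 4 and 7. Otx1 was rare, at 0.335 to 7.53 CPM in WT, 0 to 20.8 in Mtf2 null, 1.56 to 7.87 in Jarid2 null and 2.66 to 11.9 in Eed null. No UMI of Otx1 was found in the Mtf2 null libraries of day 0 (0 of 347 cells, which allows a share of up to 0.865% of cells with a captured UMI, not of cells expressing the gene) and day 4 (0 of 331 cells, up to 0.906%), while at day 10 the Mtf2 null library had the highest Otx1 (20.8 CPM, 15.2 to 27.9).

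**Figure D3:**
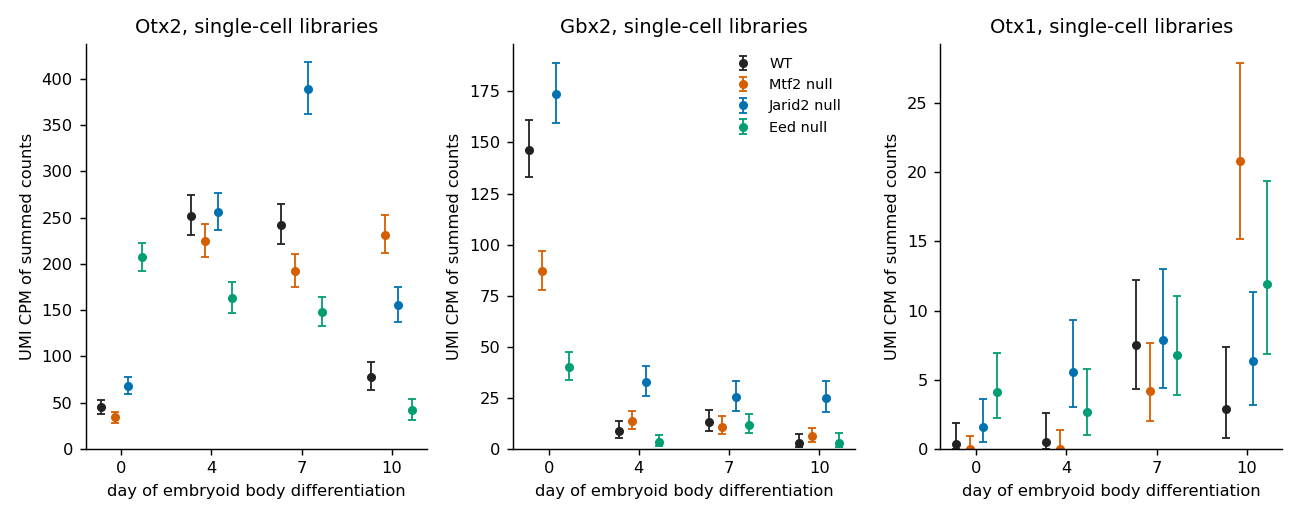
Otx2, Gbx2 and Otx1 in UMI CPM against day in the single-cell libraries of the 4 genotypes. Points are summed UMIs of 1 library and bars are exact Poisson 95% intervals (counting error only). Gbx2 is lower at each later day sampled than at day 0 in every genotype, with no library of day 2. Otx2 rises from day 0 to day 4 except in Eed null (207 to 163 CPM).

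Shares of cells with a UMI were compared after thinning each cell to 2500 UMIs, which kept 4457 cells and left out 492 shallower ones. At day 0 Gbx2 was detected in 29.2% of WT, 17.5% of Mtf2 null, 24.8% of Jarid2 null and 8.98% of Eed null cells (53.2%, 37.8%, 55.5% and 19.4% before thinning). Otx2 was detected in 8.62%, 6.80%, 12.4% and 31.3% of the same cells (22.1%, 15.3%, 21.7% and 60.3% before thinning). For comparison, cluster 4 of the authors' 22 clusters, which had the most cardiac and lateral mesoderm markers (1168 CPM), had Gbx2 in 0.309% of 324 cells and Otx2 in 13.6%, before thinning and at a median of 6138 UMIs per cell. After thinning it had Gbx2 in 0 of 302 cells, which allows up to 0.993% with a UMI, and Otx2 in 7.28% (4.62 to 10.8). The thinned Otx2 shares of WT and Mtf2 null at day 0 lay within that interval. Cluster 4 was not a floor, since Otx2 stood at 38 CPM there and at 9.24 and 14.1 CPM in clusters 18 and 19. Whether the day 0 shares of WT and Mtf2 null were background was not tested. The day 0 libraries had medians of 8447 to 10603 UMIs.

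Over the 22 clusters Otx2 and Gbx2 did not simply exclude each other. Gbx2 was highest in clusters 8 (210 CPM), 3 (156), 0 (73.2) and 6 (44.2), made mostly of day 0 cells of Jarid2 null (84.2%), WT (91.6%), Mtf2 null (78.2%) and Eed null (92.4%) respectively. Otx2 was low in the first 3 of these, at 39.5, 41.1 and 24.7 CPM, but stood at 228 CPM in cluster 6. Otx2 was highest in clusters 15 (464 CPM), 1 and 12 (both 416), 11 (295) and 5 (273), and Gbx2 in cluster 5 was 38.4 CPM and in cluster 15 was 33.4 CPM, the 5th and 6th highest. Clusters 18, 19 and 4 were low in both, with Otx2 at 9.24, 14.1 and 38 CPM. Pearson's r over the clusters, on log2(CPM + 10), was -0.12 and Spearman's rho 0.098, and r was -0.16 over the 19 clusters of at least 100 cells. Clusters differ in library, depth and day, so these are descriptions.

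**Figure D4:**
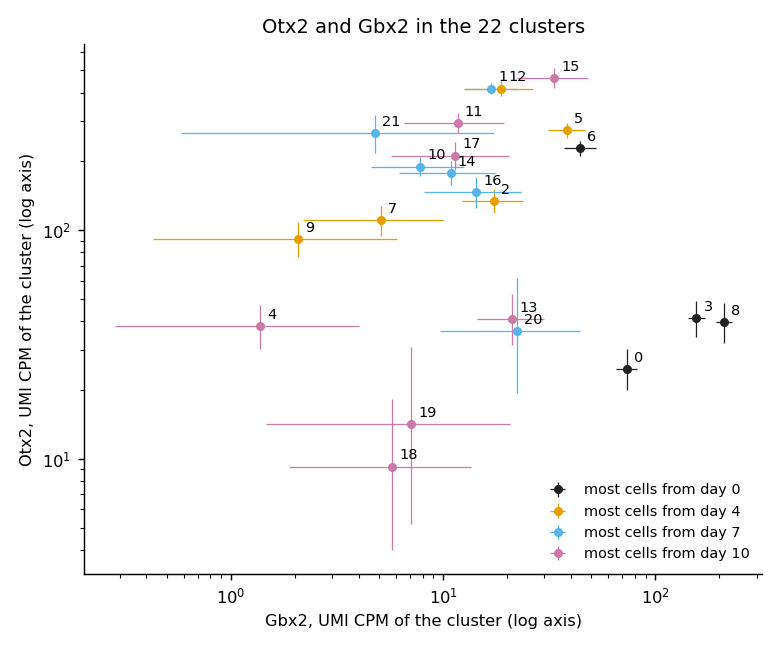
Otx2 (vertical axis) against Gbx2 (horizontal axis) in UMI CPM, both axes logarithmic, for the 22 clusters, coloured by the commonest day. Bars are exact Poisson 95% intervals; clusters 8, 3 and 0 sit high in Gbx2 and low in Otx2, clusters 5, 6 and 15 have both, and clusters 18 and 19 have little of either.

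Otx1 was concentrated in cluster 15, at 74.8 CPM against 11.5 or less in every other cluster. Cluster 15 also had the highest sum of 11 forebrain genes (1207 CPM), and 44.1% of its cells came from the Mtf2 null library of day 10. Among the genes most like Otx1 over the clusters were Dmrta2 (r = 0.88), a forebrain regulator, RMST-1, Zic1 and Fam181b, of 10987 genes compared, and the least like was Rps6ka1 (r = -0.69). Those most like Otx2 were Zic5 (r = 0.82), Rab11fip4, Plekha1, Igfbp2 and Kcnk1, with Capzb the least like (r = -0.79). Those most like Gbx2 were Cacna1a (r = 0.91), Inhbb, Zmat4, E2f4 and Notum, with Mrpl23-ps1 the least like (r = -0.92).

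In single cells Otx2 and Gbx2 were found together somewhat less often than the product of their shares within libraries, at a difference within counting error. After thinning, 48 cells had a UMI of both genes, where the product of the shares within each library gave 58.2, a ratio of 0.825 with an exact Poisson 95% interval of 0.608 to 1.09. Of the 16 libraries 5 lay above the product and 11 below. Within clusters the number was 48 against 61.2, with 4 clusters above and 15 below, and pooled over all cells it was 48 against 83.9, a number that also carries the differences between days. Without thinning, where deep cells have more of both genes, 214 cells had both against 219.8 within libraries (ratio 0.974, 0.847 to 1.11), with 8 libraries above and 8 below. At 4000 UMIs per cell the number was 70 against 89.8 (0.780, 0.608 to 0.985). The interval therefore included 1 at 2500 UMIs and without thinning, and did not at 4000 UMIs.

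Some cells had several UMIs of both genes. Of the 214 cells with both, 55 had at least 2 UMIs of each gene and 42 had 1 of each, and their median depth was 11203 UMIs against 6650 over all cells. Among these 214 cells the highest count in a cell was 30 for Otx2 and 21 for Gbx2, not necessarily in the same cell. At a limit of 2 UMIs of each gene the number with both was 55 against 67.8 within libraries (0.811).

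The day 0 libraries, 1 for each genotype, differed in this measure. In the Jarid2 null library 2 cells had both genes after thinning against 9.41 from the product, and Otx2 was detected in 2.63% of the Gbx2 cells (exact 95% interval 0.320 to 9.18) against 15.6% of the others (11.2 to 20.9). Before thinning the numbers were 23 against 40.5. In the Eed null library 13 cells had both against 9.07, and 51 against 39.8 before thinning. In the WT library the numbers were 8 against 8.18 and in the Mtf2 null library 4 against 4.01, and before thinning 37 against 39.9 and 18 against 20.0. Leaving out the 4 Eed null libraries moved the total to 33 against 47.5 (0.695, 0.479 to 0.976). Leaving out 1 library at a time, a setting added after seeing the data, gave ratios from 0.713 without the Eed null library of day 0 (35 against 49.1, 0.496 to 0.991) to 0.943 without the Jarid2 null library of day 0 (46 against 48.8, 0.691 to 1.26). Whether the genotypes differ beyond their libraries could not be tested with 1 library each.

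The level of Otx2 at day 0 was lower in cells with Gbx2 than in cells without it in the Mtf2 null and Jarid2 null libraries, and higher in Eed null. In WT it was lower too, but the intervals overlapped. In WT and Mtf2 null the numbers of cells with both genes showed no such departure from the product. In the Jarid2 null library Otx2 was at 22.2 CPM (16.3 to 29.6) in the 187 cells with Gbx2 and at 157 CPM (134 to 182) in the 150 without. In WT it was at 36.9 against 57.6 CPM and in Mtf2 null at 16.6 against 48.0 CPM, beside 38 CPM in cluster 4. In Eed null it was at 283 CPM with Gbx2 and 183 CPM without. Cells with Gbx2 were deeper than those without. The medians were 11375 and 6274 UMIs in the Jarid2 null library, 12549 and 8472 in Eed null, 9752 and 6765 in WT, and 11902 and 9682.5 in Mtf2 null. The part of depth in these levels was not tested. Within the Jarid2 null library of day 0 the split followed clusters. Its 223 cells in cluster 8 had Otx2 at 30.5 and Gbx2 at 221 CPM, its 45 cells in cluster 0 had 90.1 and 63.4 CPM, and its 28 cells in cluster 5 had 205 and 30.4 CPM.

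**Figure D5:**
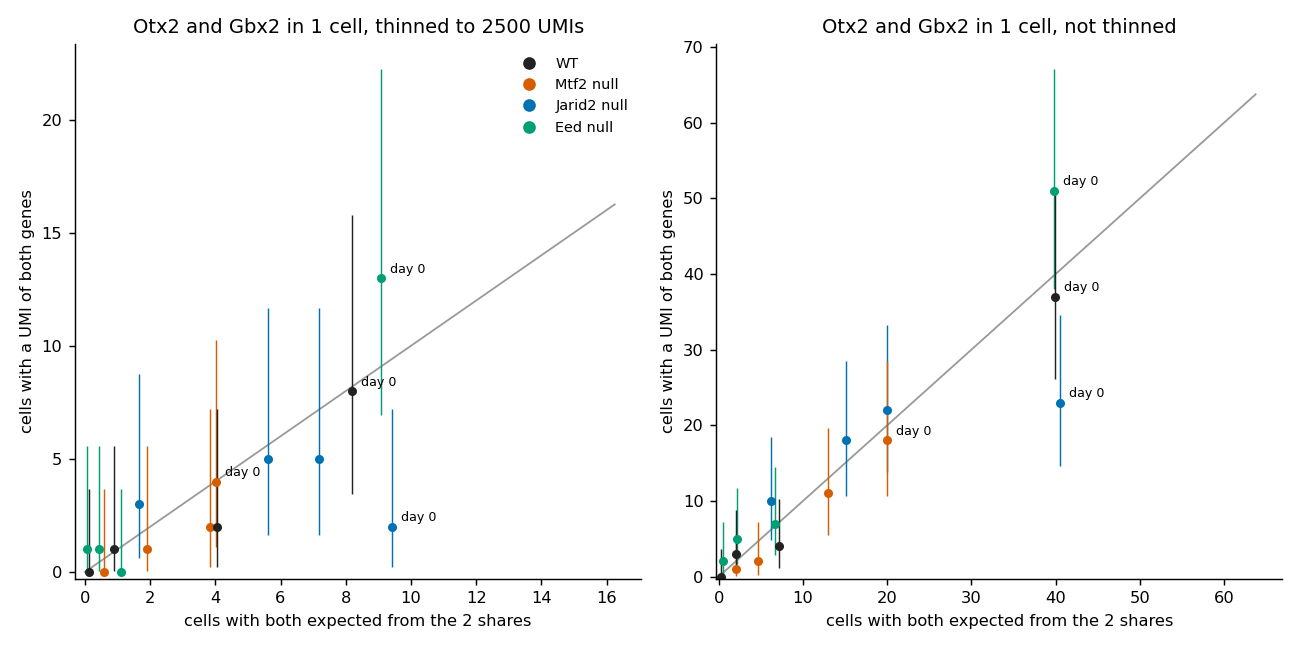
Number of cells with a UMI of both Otx2 and Gbx2 in each of the 16 libraries against the number given by the product of the shares, after thinning to 2500 UMIs and without thinning. Bars are exact Poisson 95% intervals and the line marks equality; among the day 0 libraries Jarid2 null lies below the line (2 against 9.41) and Eed null above it (13 against 9.07).

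Otx1 was found with Otx2 in 19 cells after thinning against 14.0 from the product within libraries, and in 65 against 43.8 before thinning. Within clusters the numbers were 19 against 18.7 after thinning. Otx1 and Gbx2 were found together in 1 cell against 1.67, and in 11 against 8.47 before thinning, numbers too small to show a difference at this depth.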

How the data were processed

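For the directed series, the authors deposited estimated counts per gene, made with Salmon on GRCm38/mm10 and not normalized, of which 74.9% (mesoderm) and 73.1% (endoderm) were whole. They were rounded and fitted with edgeR 4.0.16 in R 4.3.3 (TMM, quasi-likelihood test, genes kept by filterByExpr at min.count 10 and min.total.count 15), each series across its 24 libraries with 1 mean for each genotype and time. For the bulk embryoid bodies, the authors deposited a signal per gene, counts divided by a DESeq2 size factor in each of 46 columns. Whole reads were recovered within 0.02 for 100% of values (3005707 to 22944105 reads a column), the columns of 1 line and day were averaged, and limma 3.58.1 was run on log2 CPM (TMM, prior count 2, trend, genes with at least 1 CPM in 4 samples, day or line as a block). For the single cells, the authors deposited UMI counts after removing poor cells, with their clusters; doublets were not called here. Cells were thinned to 2500 UMIs (seed 7). Levels carry exact Poisson and shares Clopper-Pearson intervals (95%), neither covering more than counting error, and a count of 0 was read against a floor of 3 counts. Strand setting and annotation release are not given in the sources used here. The fits were tested on simulated data. The members, the lists and the rules for named genes were chosen with earlier results of these data known. All 3 members were named with all values. For each member the 5 genes of highest and the least like gene by Pearson's r were named, over clusters among 10987 genes with at least 200 UMIs and over directed conditions among 18017 genes. In the lists, 2 to 4 called genes of the largest change were named. A gene that these rules name is not reported here. Alternatives were DESeq2 1.42.0, other scaling factors, no filter, only the groups compared, a replicate block, other prior counts, other thinning and leaving out each library, and, added after seeing the data, edgeR on recovered reads.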

Additional observations from a re-analysis of the deposited data

Results flagged for a closer look

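The Mtf2 null effect on Gbx2 in the mesoderm series differed between undifferentiated cells and 48 h by the test of the difference itself, an interaction of 2.56 on the log2 scale (edgeR, adjusted p = 0.000246). Gbx2 was lower than WT by 0.64 in undifferentiated Mtf2 null cells, a difference that did not pass the limits, and higher by 1.91 at 48 h. At 48 h the values were 4.72 and 3.09 CPM against 0.784 and 1.30 CPM in WT. The call was lost without Mtf2 null 48 h replicate 1 (0.00442), Mtf2 null UD replicate 1 (0.0017) or WT 48 h replicate 1 (0.004) and with only the groups compared (0.00294), in a range of 1.13e-11 to 0.00442. In the endoderm series the same interaction was 0.33 (adjusted p = 0.527).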

How the results depend on the processing

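Of 911 alternative values for 88 directed results, 28 kept the direction and lost the call, 13 gained one, 17 changed sign, and the other 853 kept direction and call. For the 18 embryoid body results 10 of 153 lost the call, 1 gained one and 9 changed sign. No value that was called changed sign. With 1 exception in each experiment the sign changes came from leaving out 1 library, day or line. The exceptions were Otx2 from UD to 5 h in WT cells of the mesoderm series with upper quartile factors (-0.062, and -0.073 to 0.32 when 1 library was left out) and Gbx2 from day 4 to 7 with edgeR on recovered reads (0.011, and -0.49 to 0.25 when 1 line was left out). The other uncalled log2 values that changed sign had these ranges when 1 library was left out. In the mesoderm series they were -0.0042 to 0.32 (Gbx2, Mtf2 null against WT at 24 h), -0.10 to 0.45 and -0.82 to 0.34 (Otx2 and Gbx2, Jarid2 null at 48 h), -0.17 to 0.042 (Gbx2, Mtf2 null from UD to 5 h), -0.41 to 1.50 (Otx2, Mtf2 null from 5 to 24 h) and -0.50 to 0.049 (Otx2, Mtf2 null interaction). In the endoderm series they were -0.44 to 0.11 and -0.37 to 0.084 (Otx2, Mtf2 null and Jarid2 null at UD), -0.0046 to 0.32 and -0.56 to 0.20 (Gbx2, Mtf2 null at 24 and 48 h), -0.23 to 0.16 and -0.52 to 0.23 (Gbx2, Jarid2 null at 5 and 48 h) and -0.0077 to 0.76 (Gbx2, Mtf2 null interaction). When 1 day or line of the embryoid bodies was left out they were -0.24 to 0.62 (Gbx2, Jarid2 null label), -0.45 to 0.39 and -0.26 to 0.070 (Otx2 and Gbx2, Eed null label), and -0.073 to 0.32 and -0.14 to 0.52 (Otx1, days 0 to 2 and 4 to 7). The day 0 ratio of Gbx2 between the library labelled Eed null and J1 changed sign on log2(deposited value + 1), to 0.0141. The calls of members against WT in the mesoderm series numbered 5, and 2 with only the groups compared, with 3 to 5 when 1 library was left out. In the endoderm series they numbered 3, and 2 to 3 when 1 library was left out. Interaction calls numbered 1, 2 with DESeq2, 3 with no filter, 0 with only the groups compared and 0 to 2 when 1 library was left out. Embryoid body calls against a WT line numbered 1, 0 with edgeR on recovered reads, 0 without the day as a block and 0 to 2 when 1 day was left out. Calls between days in the WT lines numbered 2, 1 with no filter and 0 to 1 when 1 line was left out. With only the groups compared a fit has few degrees of freedom. For the other changes the cause was not tested.

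Replicate numbers did not pair the libraries: over 66 pairs of groups the correlation of same-numbered deviations ran from -0.18 to 0.27 (mesoderm) and from -0.16 to 0.20 (endoderm). With a replicate block the calls numbered 5 (mesoderm against WT), 3 (endoderm against WT), 28 (between times) and 1 (interaction), and the block changed no call of a member.

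Counts of all genes called moved by over 1.5 times in several contrasts. In the mesoderm series, Jarid2 null against WT gave 68 genes undifferentiated (247 with no filter, 119 with DESeq2), 0 at 5 h (175 with no filter, 2 with only the groups compared, 11 with DESeq2), 362 at 24 h (736 and, with only the groups compared, 8) and 31 at 48 h (147, 0 and 48). The interaction gave 585 genes for Mtf2 null (1417, 109 and 1006) and 10 for Jarid2 null (294, 2, 93 and, with upper quartile factors, 19). In the endoderm series, Jarid2 null against WT gave 143 genes undifferentiated (300 with no filter, 72 with only the groups compared), 7 at 5 h (64 and 13), 6 at 24 h (74 and, with DESeq2, 12) and 24 at 48 h (166, 10 and, with DESeq2, 59), and the interactions gave 1241 (2071 and 463) and 104 (553, 6 and 317). With only the groups compared, the mesoderm steps gave 174 genes in place of 763 (WT, 24 to 48 h), 882 of 1587 (WT, UD to 48 h), 138 of 991 (Jarid2 null, UD to 5 h) and 1014 of 1918 (Jarid2 null, 5 to 24 h), and the endoderm steps 192 of 747 (WT, 24 to 48 h) and 413 of 680 (Jarid2 null, UD to 5 h, 1034 with no filter). Mtf2 null from 24 to 48 h toward mesoderm gave 966 genes with no filter, against the 3.41% given with the step. In the embryoid bodies, 14 genes in place of 28 were called from day 4 to 7 with a prior count of 0.5, 799 in place of 1632 from day 0 to 2 with no filter, and 1190 in place of 2803 for the Mtf2 null label with only its 8 samples.

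Depth limits Otx1 in the directed series and the number of cells with both genes. The joint detection within libraries had a ratio of 0.845 with another seed and 0.780 at 4000 UMIs, and ran from 0.713 to 0.943 when 1 library was left out. Of 5343 wells with at least 500 genes, 4722 held the 2500 UMIs needed for thinning, and over these the ratio was 0.871.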
